A study of Sus scrofa with 32 samples.

Results

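Cycling B cells of the porcine ileum were taken as barcodes that held at least 1 unique molecular identifier (UMI, 1 counted transcript) of CD79B, TOP2A and PCLAF, no CD3E or EPCAM, and JCHAIN at less than 0.5% of their UMIs. CD79B is a signalling chain of the B cell receptor, TOP2A untangles DNA in dividing cells, and PCLAF binds the replication clamp PCNA. The rule found 3481 such cells among 35386 ileal barcodes kept after limits on UMIs, genes and mitochondrial UMIs per barcode. All 8 libraries together held 48629 kept barcodes. Because these transcripts chose the cells, the contrast of cycling with other B cells is a description here and was not tested.

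Droplet-based single-cell RNA-seq was run on 2 mixed-breed pigs of 7 weeks, pig 1 labelled female and pig 2 labelled male, neither described as treated. From each animal there was 1 library of ileum cut to contain only Peyer's patch (PP), 1 of ileum cut to leave Peyer's patches out (non-PP), 1 of a full cross-section (whole ileum) and 1 of peripheral blood mononuclear cells (PBMC). Epithelial and lamina propria fractions were combined and enriched for live cells before loading, so shares of cells are shares of what survived isolation. Each library was the sum of 4 sequencing runs. The deepest, PP pig 1, held 40111934 UMIs and the shallowest, non-PP pig 2, held 21134542.

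B cells proliferate in the germinal centres of Peyer's patches. In the usual account, germinal centre B cells divide in a dark zone, where their immunoglobulin genes are mutated, and are then selected with T cell help in a light zone. BCL6 and MEF2B are transcription factors of that state. Resting B cells keep instead a recirculation programme, in which the factor KLF2 maintains S1PR1, the receptor for leaving tissue. In pigs, ileal Peyer's patches are also known as a large site of B cell expansion early in life.

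One library went against its label. Among the libraries labelled pig 1, female, Y-linked transcripts stood at 0.161 UMIs per 1000000 (CPM) in PP, 0.224 in non-PP and 0 in PBMC, but at 207 CPM in whole ileum. Those labelled pig 2, male, held 213 CPM in PP, 185 in non-PP, 226 in whole ileum and 119 in PBMC. For the PP minus non-PP share, list medians over the 4 libraries that contained Peyer's patch and counts of calls over all genes in cycling B cells, the value without this library is also given. Of 111 genes named between PP and PBMC, 105 kept sign and call without it and 6 changed call, and of 24 named between PP and non-PP, 22 kept both and 2 changed call. In non-PP pig 1, 1 of the 6 cycling B cells held Y-linked UMIs, 3 of them. Across the ileal libraries 6 barcodes were shared between 2 sets of cycling B cells, which touches 12 cells, while 21 to 80 kept barcodes were shared in each of 15 pairs of ileal libraries.

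Most of the cells came from tissue that contained Peyer's patch. PP pig 1 held 870, PP pig 2 held 947, whole ileum pig 1 held 398 and whole ileum pig 2 held 1245, whereas non-PP pig 1 held 6 and non-PP pig 2 held 15. The same rule found 73 and 55 cells in the blood of pigs 1 and 2. The members had a median of 5358 UMIs and 1713 genes, and ranged from 1271 to 42033 UMIs. Median counts of the rule's transcripts were 6 for CD79B, 3 for TOP2A and 8 for PCLAF. Just inside the rule, 212 members had a single CD79B UMI and 83 had a single UMI of both TOP2A and PCLAF. Just outside, 3142 ileal CD79B cells held only one of the pair, 419 of them TOP2A and 2723 PCLAF, and 39 further barcodes missed the rule through JCHAIN alone. A simulated-doublet score above 0.25 was given to 98 members, which stayed in.

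Genes outside the rule matched the B cell label. MS4A1, which encodes CD20, had a UMI in 66.7% to 93.3% of members across the 6 ileal libraries, against 0.0854% to 3.71% of CD3E cells without CD79B and without cycling transcripts, the non-cycling T cells. PAX5, the factor that holds B cell identity, had one in 50.3% to 80.0% of members and in at most 1.05% of those T cells. Those T cells were chosen without CD79B, so their low shares are not independent of that choice. Median depths were 4547 to 7636 UMIs in members and 2119 to 2646 in non-cycling T cells. With every cell thinned to the lowest depth kept, MS4A1 still had a UMI in 50% to 61.1% of members. CD3D, a T cell receptor chain, had a UMI in 0% to 6.67% of members. Of cells with CD3E, 33.3%, 25.6%, 0.441%, 0.807%, 16.01% and 30.8% also held CD79B in PP, non-PP and whole ileum, pig 1 before pig 2 in each. That share was highest where B cells were common, and its source was not tested. RAG1, which recombines immunoglobulin genes in early B lymphopoiesis, had no UMI in any member, which allows a share of up to 0.0862% of cells with a UMI.

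The members made up 11.9% of kept barcodes in PP pig 1 (95% exact binomial interval 11.13 to 12.6) and 13.8% in PP pig 2 (13.0 to 14.6). They made up 0.154% in non-PP pig 1 (0.0564 to 0.334) and 0.397% in non-PP pig 2 (0.223 to 0.654). Whole ileum lay at 6.88% in pig 1 (6.24 to 7.56) and 16.2% in pig 2 (15.3 to 17.0), and PBMC at 1.13% (0.889 to 1.42) and 0.809% (0.610 to 1.05). PP and non-PP did not overlap: the mean share was 12.8% ± 1.36 (SD, n = 2) in PP and 0.275% ± 0.172 (SD, n = 2) in non-PP, a difference of 12.5 percentage points, which was 3.99 points with every cell thinned to 1 depth. An exact two-sided permutation test gave p = 0.3333, the smallest that 2 libraries against 2 allow. With both whole ileum libraries added to PP, the difference was 11.9 points (exact permutation p = 0.133, n = 4 and 2), and without the library labelled whole ileum pig 1 it was 13.7 points (exact permutation p = 0.2, n = 3 and 2). Each of these p-values is also the smallest its design allows. The PP, whole ileum and non-PP libraries were sections of the same 2 pigs, so these n count libraries and not animals.

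The picture changed when the members were counted among B cells alone. As a share of CD79B cells that met the same exclusions, they were 23.8% in PP pig 1 (22.4 to 25.2), 25.8% in PP pig 2 (24.4 to 27.2), 20.3% in whole ileum pig 1 (18.6 to 22.2) and 26.8% in whole ileum pig 2 (25.5 to 28.1). In non-PP pig 1 the share was 27.3% of 22 cells (10.7 to 50.2) and in non-PP pig 2 it was 28.3% of 53 cells (16.8 to 42.3). The PP and non-PP intervals overlapped, and the difference of -3.02 percentage points (24.8% ± 1.40 against 27.8% ± 0.728, SD, n = 2 each) had an exact permutation p of 0.3333. It turned to 3.15 points with at least 2 UMIs of TOP2A and PCLAF and to 0.0262 without the JCHAIN limit. In blood, 4.68% (3.69 to 5.85) and 4.48% (3.39 to 5.79) of CD79B cells met the rule, below each ileal library. After the same thinning the share was 9.10% and 9.32% in PP, 21.1% and 10.9% in non-PP (of 19 and 46 cells), 7.64% and 12.5% in whole ileum and 1.198% and 1.06% in PBMC, so its level rests on depth while every ileal library stayed above both blood libraries. The PP minus non-PP difference was then -6.75 points. The CD79B cells themselves were 49.9% and 53.5% of kept barcodes in PP, 0.563% and 1.40% in non-PP, 33.8% and 60.3% in whole ileum, and 24.2% and 18.1% in PBMC.

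**Figure D1:**
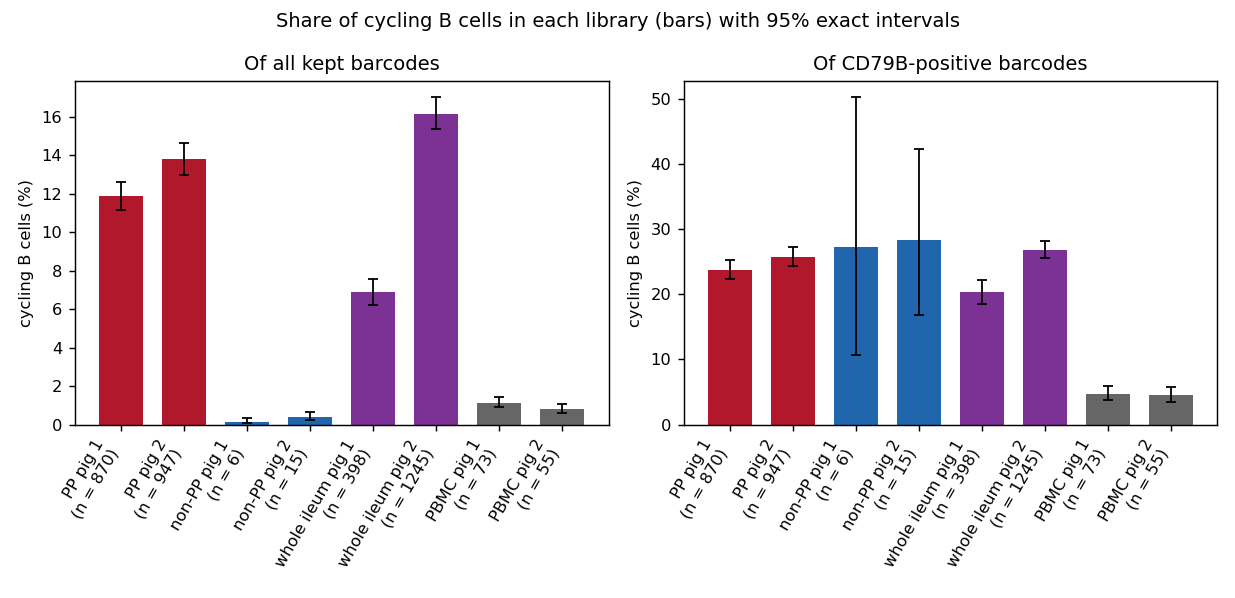
Cycling B cells as a percentage of all kept barcodes (left) and of CD79B-positive barcodes (right) in the 8 libraries, with the number of cycling B cells under each name. Bars are shares and whiskers 95% exact binomial intervals, which cover counting error only. Non-PP libraries stand at 0.154% and 0.397% on the left, and on the right all 6 ileal libraries lie between 20.3% and 28.3%, above blood.

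For T cells the shares ran differently. By the same TOP2A and PCLAF rule, cycling cells were 6.23% and 3.56% of CD3E cells without CD79B in PP, 5.49% and 1.88% in non-PP, 3.91% and 4.27% in whole ileum, and 10.7% and 5.88% in PBMC. In every ileal library the share of cycling cells was higher among B cells than among T cells. In both blood libraries it was higher among T cells. The T cell shares leave out CD3E cells with CD79B, which were 33.3% and 25.6% of CD3E cells in PP and 0.441% and 0.807% in non-PP. They were also not thinned to 1 depth, so they are not fully comparable across tissues.

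Against non-cycling B cells, which held CD79B but neither TOP2A nor PCLAF, the members were higher for nearly all listed genes of DNA replication and mitosis. There were 7390 such non-cycling cells in the ileum. Levels are given as CPM of the summed class, and ratios as the log2 ratio of CPM + 5 within each library, averaged over the 4 libraries that contained Peyer's patch (PP and whole ileum) unless 6 are named. Of 64 G2/M and mitosis genes above 10 CPM, 64 were higher in members in all 4 libraries, with a median ratio of 2.78. Of 61 S phase and replication genes, 61 were higher, with a median of 1.72, and so were 15 of 15 chromatin and histone genes, with a median of 1.71. Over all 6650 genes above 10 CPM, 36.2% were higher and 33.5% lower in all 4 libraries, and the median was 0.0078. Without the library labelled whole ileum pig 1, the medians over 3 libraries were 2.84 for G2/M, 1.73 for S phase, 1.69 for chromatin and 0.011 for all genes. Transcripts of division move with the rule, so these counts describe its reach only. The members also held more UMIs per cell than non-cycling B cells (a median of 5814 against 2328 in PP pig 1), which CPM removes from levels but not from detection. Ratios were therefore also taken against non-cycling B cells with at least the lower quartile of UMIs of the members of their library. They are called non-cycling B cells of like depth below, though this is a lower limit and not a match. They numbered 172 of 1944 in PP pig 1 and 196 of 1931 in PP pig 2. In whole ileum they were 121 of 1129 in pig 1 and 226 of 2348 in pig 2. Whether these cells differ from the rest in more than depth was not tested. Against these the median of all genes was 0.22 over the 4 libraries, with 3000 genes higher and 1142 lower in all 4.

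Beside the rule's own transcripts, the gene with the highest ratio was UBE2C, the ubiquitin-conjugating enzyme of the anaphase-promoting complex. It stood at 809 and 830 CPM in PP, 1311 and 656 in non-PP, and 792 and 984 in whole ileum, against 23.1, 26.1, 0, 0, 25.3 and 29.4 in the non-cycling cells. Every library's members were far above its own non-cycling cells (mean log2 ratio 4.79 ± 0.07, SD, n = 4, and 5.71 ± 1.46, SD, with the 2 non-PP libraries). By the mean over 6 libraries it was followed by TK1 (4.03 over the 4), a thymidine kinase of nucleotide salvage, ASF1B (4.09), a histone chaperone, and TPX2 (3.63), a spindle assembly factor. Then came the mitotic kinase AURKB (4.42), PBK (4.11), CDCA3 (3.94), the histone gene HIST1H2AB (4.48) and the condensin subunit SMC2 (3.88). CDK1, CDC20, NUF2, CCNB2, HMMR and SPC24 completed the 15 highest, with ratios from 3.14 to 4.12. BIRC5, an inhibitor of apoptosis that works in chromosome segregation, had a UMI in 80.0% to 86.3% of members and in 0% to 14.9% of non-cycling B cells. STMN1, a regulator of microtubules, averaged 2339 CPM over the 4 libraries with Peyer's patch, against 449 in non-cycling B cells.

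By the mean over 6 libraries the lowest ratio was that of CCR7, a receptor for entering the T cell area. It stood at 19.6 and 11.99 CPM in PP members and 15.9 and 11.5 in whole ileum members, and was at 0 in both non-PP sets. In the matching non-cycling B cells it stood at 226, 153, 180 and 121 CPM, with 691 and 203 in non-PP (mean log2 ratio -3.13 ± 0.14, SD, n = 4, and -4.17 ± 1.71, SD, n = 6). KLF2 had a ratio of -3.23, and GPR183, a receptor that guides B cells to the outer follicle, one of -2.84. All 10 resting and recirculating genes above 10 CPM were lower in members in all 4 libraries with Peyer's patch, with a median of -1.64 (-1.67 without whole ileum pig 1, and -1.93 against non-cycling B cells of like depth, with 9 of 10 lower in all 4). THY1 (-2.27), the interferon-induced IFI6 (-2.13) and ISG15 (-2.0), the survival gene BCL2A1 (-1.74), NFKBID (-1.80), an NF-kB inhibitor, and DUSP5 (-2.01), a MAP kinase phosphatase, were also among the 15 lowest, with ITM2B, CHD2, FCMR, CAPG and CYTIP. In barcodes of at most 50 UMIs, which hold free RNA, CCR7 averaged 42.6 CPM and IFI6 averaged 2545 CPM, both above their levels in members.

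**Figure D2:**
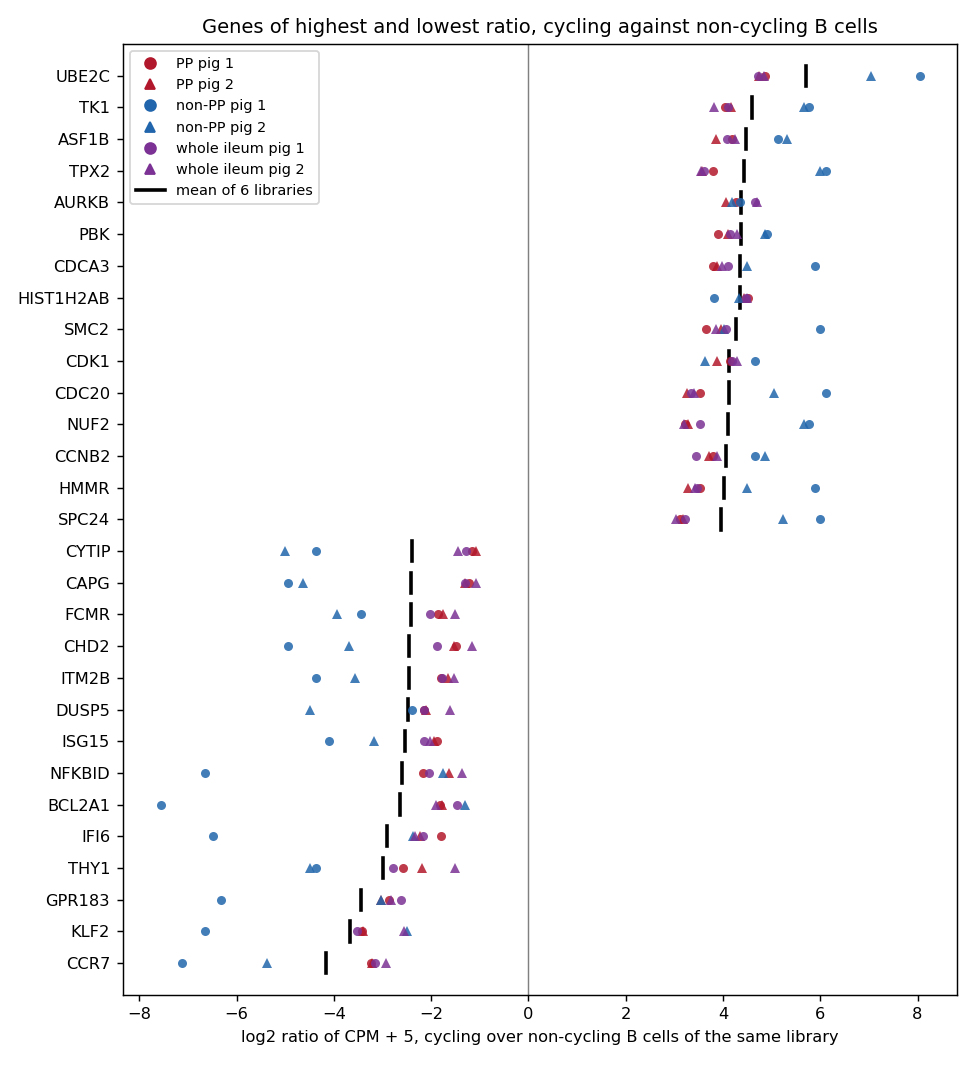
Log2 ratio of CPM + 5 in cycling over non-cycling B cells of the same library for the 15 genes of highest and 14 of lowest mean ratio. Each point is 1 ileal library (colour for tissue, shape for pig) and the black bar is the mean of 6. UBE2C is highest at 5.71 and CCR7 lowest at -4.17, and the non-PP points, from 6 and 15 cycling cells, scatter most.

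Whether germinal centre genes were higher in members depended on which non-cycling B cells they were set against. Of 24 above 10 CPM, 12 were higher and 6 lower in members in all 4 libraries with Peyer's patch, with a median ratio of 0.12 (0.11 without whole ileum pig 1). Against non-cycling B cells of like depth 20 were higher and 2 lower, with a median of 0.81 beside 0.22 for all genes. CXCR4, the dark zone chemokine receptor, was the most abundant of those named here, at 420.2 and 436 CPM in PP, 364 and 527 in non-PP and 427 and 647 in whole ileum members. It was lower than in the non-cycling cells of the same library in 5 of 6 libraries (mean log2 ratio -0.48 ± 0.24, SD, n = 4). Non-cycling T cells averaged 337 CPM of it. ELL3, an elongation factor, stood at 367 and 392 CPM in PP, 461 and 516 in non-PP and 424 and 437 in whole ileum, higher than in non-cycling cells in 6 of 6 libraries by a small ratio (0.22 ± 0.09, SD, n = 4). Non-cycling T cells averaged 8.49 CPM of it. The repair and mutation genes POLH (1.48), MSH6 (1.42) and UNG (1.29) lay on the side of the members, as did MYBL1 (0.87), a germinal centre transcription factor. BCL6, at 97.4 and 84.5 CPM in PP, had a mean ratio of 0.53 ± 0.18 (SD, n = 4), and of 1.32 ± 1.66 (SD, n = 6) with the non-PP libraries. S1PR2 (0.40), which confines cells to the follicle, and MEF2B (0.28) were higher in 6 of 6 libraries by a small ratio too.

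The light zone and activation list ran the other way: 18 of 20 genes above 10 CPM were lower in members in all 4 libraries with Peyer's patch, and none was higher (median -0.70, and -0.63 without whole ileum pig 1). Against non-cycling B cells of like depth 16 were lower and 1 higher (median -0.52). CD83, a surface marker of the light zone, averaged 118 CPM in members and 307 in non-cycling cells of those 4 libraries. NFKBIA, an early target of NF-kB, averaged 203 against 449, and CD40, the receptor for T cell help, 133 against 217. CD86, a costimulatory ligand, averaged 135 against 139 and differed by less than the spread between libraries (mean log2 ratio -0.04 ± 0.06, SD, n = 4).

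B cell identity genes were mostly lower in members, 18 of 22 in all 4 libraries (median -0.49, and -0.46 without whole ileum pig 1). Against non-cycling B cells of like depth this did not hold, with 7 higher and 9 lower (median 0.0010). The antigen presentation genes SLA-DQB1 (-1.10), CD74 (-1.02) and SLA-DRA (-0.92) lay low with BANK1 (-1.26). CD74, the invariant chain, was still the most abundant of the list in members at 4273 CPM. PAX5 (0.20) and FCRLA (0.38) lay above 0 on average, in 5 of 6 libraries each. Growth and metabolism genes were mostly higher, 21 of 25 (median 0.41, 0.39 without whole ileum pig 1, and 14 of 25 with a median of 0.41 against non-cycling B cells of like depth), with the chaperones HSPD1 (1.12), HSPE1 (0.87) and HSP90AA1 (0.98), the nuclear transport factor RAN (1.12) and GAPDH (0.91). PHGDH, the first enzyme of serine synthesis, had the highest ratio of the list at 2.49 ± 0.05 (SD, n = 4), with 70.8 to 145.7 CPM in members of the 6 libraries and at most 12.7 CPM in non-cycling cells. In cycling against non-cycling T cells its ratio was 0.92 ± 0.42 (SD, n = 6).

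Genes of cell cycle entry and arrest divided 9 higher to 6 lower of 18, and 11 to 3 against non-cycling B cells of like depth. CDKN2C (1.86) and CDKN3 (2.00), an inhibitor and a phosphatase of cyclin-dependent kinases, and CDK4 (1.19), the G1 kinase, were higher, and the antiproliferative BTG1 (-1.78) and BTG2 (-1.43), TXNIP (-0.93) and PIK3IP1 (-1.53) were lower. Among D-type cyclins, CCND3 averaged 334 CPM in members of the 4 libraries with Peyer's patch and CCND2 averaged 7.68. Of 11 antibody secretion genes, 9 were lower (median -0.37, -0.25 without whole ileum pig 1, and -0.86 with 9 lower against non-cycling B cells of like depth), among them FKBP11 (-1.28). PRDM1, the factor of plasma cell differentiation, averaged 8.08 CPM in members. Of 13 apoptosis genes, 2 were higher and 7 lower (median -0.19, and -0.25 without whole ileum pig 1), and against non-cycling B cells of like depth 6 were higher and 2 lower (median 0.18).

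Transcripts of other cell types were low but present. The 20 T cell markers summed to 654 and 715 CPM in PP members, 971 and 1312 in non-PP, 1009 and 706 in whole ileum, and 416 and 1239 in PBMC, led by CD247, CCL5 or GZMB. Epithelial markers summed to 375 and 60.9 in PP, 1044 and 215 in non-PP, 121 and 106 in whole ileum, and 4.90 and 0 in PBMC, led in the ileum by FABP6, a bile acid binding protein of the ileum. Myeloid markers summed to 126 and 256 in PP, 0 and 21.5 in non-PP, 39.2 and 48.7 in whole ileum, and 93.1 and 85.7 in PBMC. In barcodes of at most 50 UMIs, FABP6 averaged 7226 CPM and CCL5 averaged 9056 CPM over the ileal libraries. The defining T and epithelial markers CD3E and EPCAM are at 0 by the rule. The part of such RNA in the results was not tested.

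Within the members, the balance of G2/M to S phase transcripts differed widely from cell to cell. Each library's members were ordered by the G2/M share of their S plus G2/M UMIs and divided into 3 equal parts. In PP pig 1 the median share was 29.3% in the low part, 45.7% in the middle and 69.9% in the high part, and in PP pig 2 it was 30.6%, 47.5% and 73.0%. The order uses listed cell cycle genes, so the following are descriptions over the 4 libraries with Peyer's patch (mean ± SD, n = 4). Of the genes used for the order, PCNA went from 1196 to 885 to 287 CPM, and CCNB1, a mitotic cyclin, from 52.0 to 136 to 400.0 CPM.

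Repair and mutation genes that are in neither ordering list went in opposite directions along the order. POLH, an error-prone DNA polymerase, averaged 47.5 ± 6.25 CPM in the low part, 71.6 ± 5.14 in the middle and 131 ± 10.7 in the high part. From low to high it went from 45.3 to 125 CPM in PP pig 1, 47.3 to 123 in PP pig 2, 41.3 to 147 in whole ileum pig 1 and 56.1 to 129 in whole ileum pig 2. The high part was above the low part in 4 of 4 libraries (mean log2 difference 1.38 ± 0.24, SD, n = 4, and 1.27 ± 0.12, SD, n = 3, without whole ileum pig 1). UNG, a glycosylase that removes uracil from DNA, ran the opposite way, from 95.3 ± 31.9 to 29.1 ± 7.41 to 3.38 ± 0.764 CPM. It went from 143 to 2.75 CPM in PP pig 1, 74.5 to 4.37 in PP pig 2, 80.5 to 3.60 in whole ileum pig 1 and 83.5 to 2.80 in whole ileum pig 2 (mean log2 difference -3.54 ± 0.51, and -3.61 ± 0.59 without whole ileum pig 1). The mismatch repair gene MSH6 went the same way, from 192 ± 18.2 to 117 ± 13.1 to 40.2 ± 11.5 CPM, lower in the high part in 4 of 4 libraries. Levels of POLH and of these repair genes were thus highest in different parts of the cycling population.

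Other germinal centre genes moved less. BCL6 went from 65.7 ± 12.9 to 101 ± 20.6 CPM, MYBL1 from 123 ± 11.6 to 183 ± 14.01, CXCR4 from 427 ± 96.1 to 590 ± 125, ELL3 from 306 ± 26.3 to 550 ± 41.5, RGS13 from 99.6 ± 24.6 to 166 ± 39.1 and BACH2 from 27.4 ± 7.38 to 56.0 ± 17.8, each higher in the high part in 4 of 4 libraries. MEF2B went from 285 ± 50.5 to 239 ± 49.1 and CD83 from 133 ± 13.5 to 97.8 ± 10.0, each lower in 4 of 4. In all, 13 of 24 germinal centre genes were higher and 4 lower in the high part in all 4 libraries, beside 34.4% higher and 21.5% lower of 5964 genes. B cell identity genes were higher in 14 of 21, PAX5 from 106 ± 9.99 to 196 ± 32.9 CPM among them, while MS4A1 went from 793 ± 87.3 to 691 ± 98.8. Growth and metabolism genes were lower in 16 of 25. Among genes in none of the lists, KNSTRN, ARL6IP1, KPNA2, TUBB4B and CKAP5 had the highest mean differences (2.56 to 2.02) and TCF19, HAUS1, CENPU and CDCA7 among the lowest (-2.25 to -1.58).

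**Figure D3:**
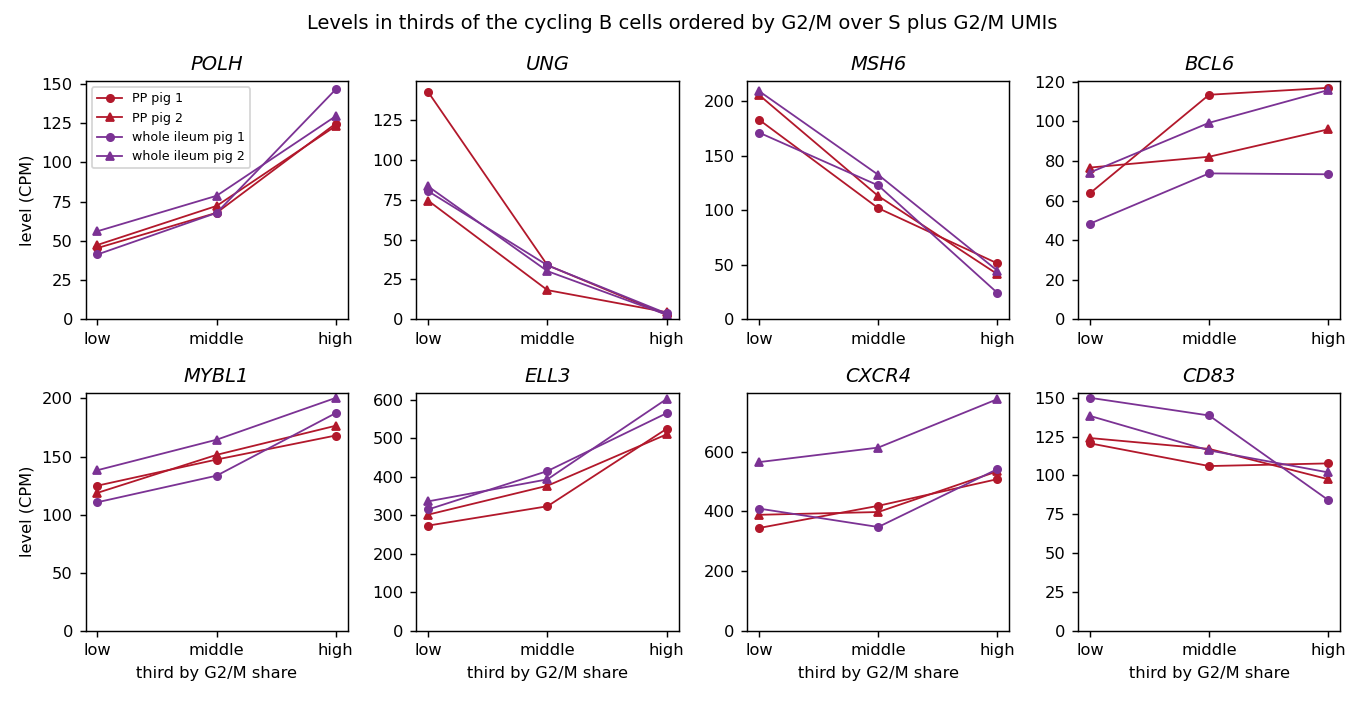
Levels (CPM, linear axes from 0) of 8 germinal centre and light zone genes in 3 equal parts of the cycling B cells, ordered within each library from a low to a high G2/M share of cell cycle UMIs. Each line is 1 of the 4 libraries with Peyer's patch. POLH averages 47.5, 71.6 and 131 CPM across the parts, while UNG averages 95.3, 29.1 and 3.38 CPM.

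Many genes separated the PP members from cycling B cells of blood. The 128 blood cells were chosen by the same rule, and the summed counts of all 8 libraries were fitted together with edgeR's quasi-likelihood test, with Benjamini-Hochberg adjustment over 7786 genes. At an adjusted p under 0.05, 578 genes (7.42%) were higher and 667 (8.57%) lower in PP than in PBMC, and the median of all genes was 0.02 on the log2 scale. Without scaling of library sizes the counts were 882 higher and 513 lower, and the median of all genes moved by 0.19. Leaving out pig 1 left 352 higher and 483 lower, leaving out pig 2 left 453 and 418, leaving out the library labelled whole ileum pig 1 left 469 and 560, and pairing by pig in the 4 libraries of these groups alone gave 938 and 979. Both groups come from the same 2 pigs, but the ileum was digested and enriched for live cells and the blood was not, and this cannot be told apart from tissue.

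Of 24 germinal centre genes tested, 16 (66.7%) were higher in PP and 1 lower, beside 7.42% and 8.57% of all genes, with a median log2 fold change of 1.57. MEF2B stood at 240 and 294 CPM in PP against 6.53 and 11.2 in PBMC, and the groups did not overlap (4.74 ± 0.34, SE, edgeR adjusted p = 1.22e-06). BCL6 stood at 97.4 and 84.5 CPM against 6.53 and 1.86 (4.18 ± 0.44, SE, edgeR adjusted p = 2.75e-05). MYBL1 (3.62 ± 0.31), CXCR4 (3.06 ± 0.30) and ELL3 (2.62 ± 0.20) were also higher, with both PP libraries above both blood libraries in each. RGS13, a regulator of chemokine receptor signalling, stood at 89.4 and 146 CPM in PP and had no UMI in blood, at least 45.8-fold higher against 3 counts over the group. S1PR2 had 106 and 130 CPM in PP and a single UMI in blood. POLH (1.50), POU2AF1 (1.41), EAF2 (1.13), BACH2 (1.96), GNA13 (1.64) and the transcription factor TCF3 (1.18) passed the test with smaller changes. CD38 was the exception, at 15.1 and 18.9 CPM in PP against 118 and 203 in blood (-3.41 ± 0.34, SE). The mutation and repair genes UNG (0.34, edgeR adjusted p = 0.70) and MSH6 (0.27, edgeR adjusted p = 0.445) did not pass.

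Free RNA was measured in barcodes of at most 50 UMIs. MEF2B averaged 88.0 CPM, ELL3 averaged 164 CPM and CXCR4 averaged 317 CPM in those of the ileum, all below the PP members. FAS, which passed at 3.30, averaged 33.2 CPM there, above the 20.4 and 19.7 CPM of the members. These averages include the non-PP libraries, where CD79B cells were few, so they are not the level of free RNA in PP. The other called genes of the list are not set against free RNA here, and its part in these results was not tested.

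Of 22 light zone and activation genes tested, 9 (40.9%) were higher and 2 (9.09%) lower in PP (median 0.89), beside 7.42% and 8.57% of all genes. At 5 or more CD79B UMIs 6 were higher and 3 lower of 21. CD83 stood at 112 and 113 CPM in PP and 13.1 and 24.2 in PBMC (2.42 ± 0.29, SE, edgeR adjusted p = 7.09e-05). CD86 stood at 129 and 127 CPM against 52.3 and 74.5 (0.83 ± 0.21, SE, edgeR adjusted p = 0.0141), and lost significance in 2 of 17 settings. CD69, IL21R and NFKBIA were higher as well, and NR4A1, EGR1, TNFAIP3 and ICAM1 rested on 0 to 4 blood UMIs. CD69, NFKBIA, NR4A1, EGR1 and TNFAIP3 were more abundant in ileal barcodes of at most 50 UMIs than in members. CD80 (-2.97) and BATF (-1.53) were lower in PP.

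Recirculation genes were lower in PP members: 8 of 11 resting and recirculating genes tested (72.7%) were lower and none higher (median -1.96). Of all genes, 8.57% were lower and 7.42% higher. KLF2 stood at 20.1 and 9.33 CPM in PP and 529 and 535 in PBMC (-5.38 ± 0.29, SE, edgeR adjusted p = 1.73e-07). It had a UMI in 7.13% and 4.12% of PP members and in 90.4% and 94.5% of blood members. S1PR1 stood at 3.99 and 2.37 CPM against 191 and 130 (-5.85 ± 0.33, SE, edgeR adjusted p = 3.68e-07). KLF3 (-6.25), GPR183 (-1.97), CCR7 (-1.96), the integrin ITGB7 (-1.62) and the adhesion receptor CD44 (-1.75) were lower too. CCR7 lost the call without pig 2. Outside the lists, S100A10 (-5.18), THY1 (-4.98), VIM (-4.36), FLNA (-4.04) and SPTBN1 (-4.38) had the lowest adjusted p on this side. On the higher side these were ZNF70 (2.99), NUGGC (3.31), HMCES (3.26), GCSAM (3.06), RGCC (4.10), TCEA1 (2.50) and POLD4 (2.22). RGS1, a regulator of G protein signalling, stood highest of them at 5.97 ± 0.35 (SE), with a mean of 377 CPM in PP and 5.36 in blood.

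**Figure D4:**
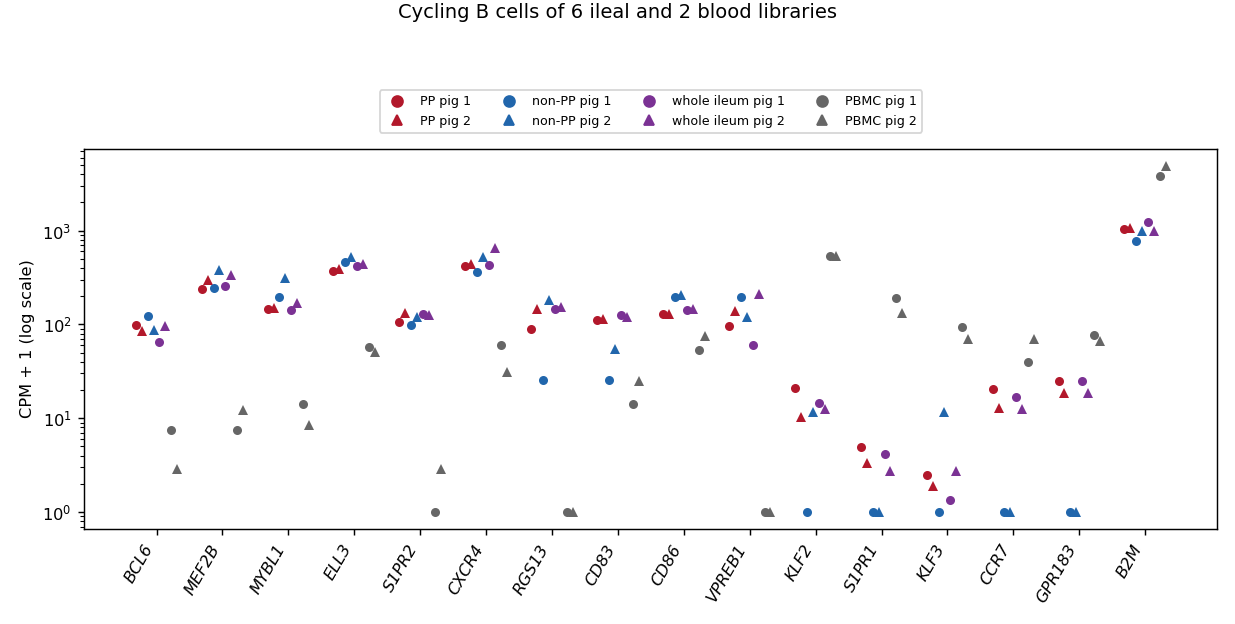
CPM + 1 (log axis) of 16 genes in cycling B cells of the 8 libraries, colour for tissue and shape for pig. For the 10 genes on the left, BCL6 to VPREB1, ileal PP libraries lie above both blood libraries, and for KLF2, S1PR1, KLF3, CCR7 and GPR183 they lie below, KLF2 at 20.1 and 9.33 against 529 and 535 CPM.

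Of 65 G2/M and mitosis genes, 4 (6.15%) were higher in PP and none lower (median 0.07), near the 7.42% of all genes that were higher. They were AURKB (0.75), UBE2T (1.07), MYBL2 (1.15) and BIRC5 (0.53). Of 64 S phase and replication genes, 11 (17.2%) were higher and 3 (4.69%) lower (median 0.31), including the nuclease EXO1 (2.44 ± 0.39, SE), the clamp loader subunits RFC1 (1.85) and RFC3 (1.19), MCM7 (1.03) and the maintenance methyltransferase DNMT1 (0.93). E2F7 (-1.55), CCNE2 (-1.13) and RPA1 (-0.92) were lower, but no S phase gene was lower with PP and PBMC libraries only, without library scaling, at 5 or more CD79B UMIs or without pig 1. STMN1 differed by -0.04 ± 0.16 (SE, edgeR adjusted p = 0.917), with 2323 and 2185 CPM in PP and 2128 and 1913 in PBMC, and its sign turned without library scaling, without the JCHAIN limit, without a filter on low counts, without pig 1 and with whole ileum pig 2 in place of PP pig 2. HMGN1 (1.34), HMGN2 (0.68) and H2AFZ (0.57) were the chromatin genes that passed, 3 of 15 (20%), all higher. CCND3 (0.94) was higher and CCND2 (-2.78) lower in PP.

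Smaller groups were mixed, beside 7.42% higher and 8.57% lower of all genes. B cell identity genes were 4 higher (18.2%) and 3 lower (13.6%) of 22 (median -0.08), FCRLA (1.74), BLNK (1.28), CD22 (1.02) and PAX5 (0.97) against BANK1 (-3.78), CIITA (-1.33) and CD81 (-0.76). Antibody secretion genes were 4 higher (36.4%) and 2 lower (18.2%) of 11, HERPUD1 (2.99), PDIA4 (1.43), DERL3 (1.42) and MZB1 (0.75) against SEC11C (-1.10) and SSR4 (-0.84). The rule limits JCHAIN, itself a secretion gene, and without that limit 1 was higher and 7 lower of 12, with MZB1 at -0.90. Growth and metabolism genes were 5 higher (20%) and 2 lower (8%) of 25, with PHGDH the furthest at 70.8 and 82.2 CPM in PP against 9.80 and 3.73 in blood (3.26 ± 0.37, SE, edgeR adjusted p = 4.79e-05). Apoptosis genes were 2 higher (15.4%) and 1 lower (7.69%) of 13. VPREB1, part of the surrogate light chain of early B cells, stood at 95.1 and 137 CPM in PP, 194 and 118 in non-PP and 59.4 and 209 in whole ileum and had no UMI in blood members, at least 44.9-fold higher in PP. Marker genes of other cells also passed. Of 6 myeloid markers tested 4 (66.7%) were higher in PP. The median was 5.37, or 2.39 with the 3 genes that were at 0 in one group set to their bound. At 5 or more CD79B UMIs 2 were tested and none was higher, and with whole ileum pig 2 in place of PP pig 2 none of 4 was. C1QA, C1QB, C1QC and CST3 of macrophages and FABP6 of epithelium were higher in PP, and KLRK1, NKG7, CTSW, CCL5 and LYZ lower, CCL5 at 203 and 177 CPM against 278 and 587. CD247 (2.99) was higher. Without pig 2 no T cell marker was lower and 3 were higher. KLRK1 then stood at 0.54, NKG7, CTSW and CCL5 lost the call and LYZ kept it.

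**Figure D5:**
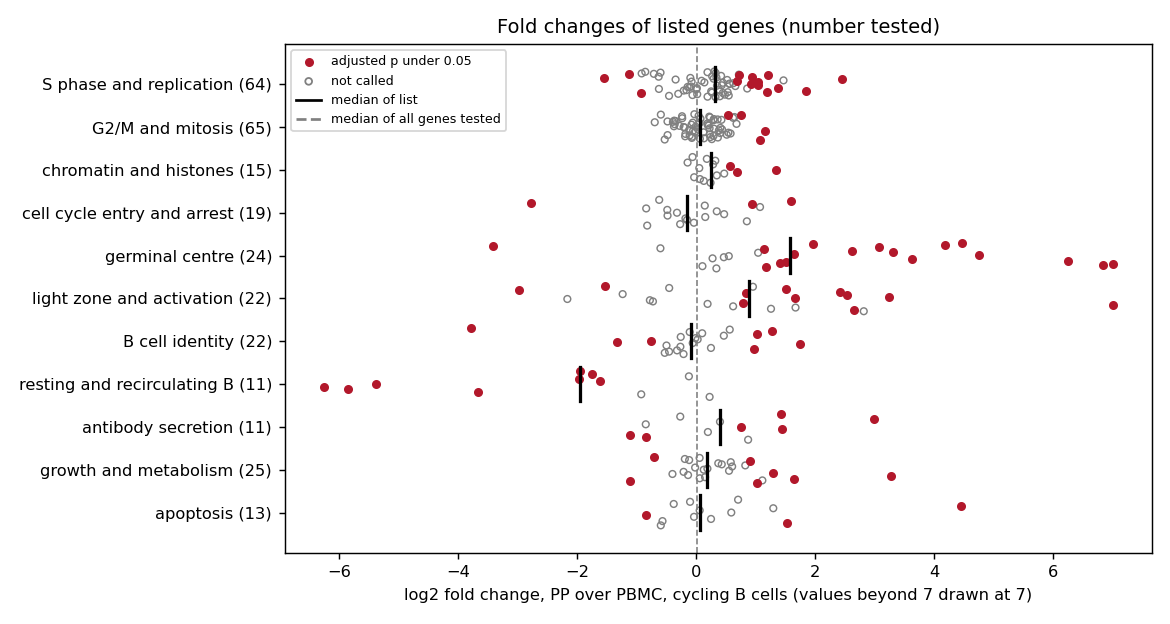
Log2 fold change of PP over PBMC in cycling B cells for the genes of 11 lists, with the number tested. Red points passed an edgeR adjusted p under 0.05, grey rings did not, black bars are list medians and the dashed line is the median of all 7786 genes. The germinal centre list has a median of 1.57 and the resting and recirculating list one of -1.96.

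The same tissue contrast in non-cycling B cells called 1289 genes higher (13.6%) and 1132 lower (11.9%) of 9512, and 18 of 24 germinal centre genes were higher there and 1 lower. Whether the contrast differs between cycling and non-cycling cells was tested in 1 edgeR model over both. Of 9676 genes, the PP minus PBMC difference was more positive in cycling cells for 139 (1.44%) and more negative for 267 (2.76%), 406 in all. Without pig 1 the total was 163, without pig 2 it was 90, and without the library labelled whole ileum pig 1 it was 448. The negative side held 8 of 12 resting and recirculating genes and 32 of 65 G2/M genes. CCR7 was lower in PP than in blood among cycling cells (-1.96) and higher among non-cycling cells (1.73 ± 0.32, SE, edgeR adjusted p = 0.00228), a difference of -3.58 ± 0.30 (SE, edgeR adjusted p = 3.02e-17). KLF2 differed by -3.48 ± 0.19 (SE, edgeR adjusted p = 3.69e-29) and GPR183 by -2.80 ± 0.26 (SE, edgeR adjusted p = 3.69e-15). The classes were split on cell cycle transcripts, so the G2/M count is not independent of the rule. Among non-cycling cells UBE2C had a mean of 24.6 CPM in PP and 3.69 in PBMC. Of 25 germinal centre genes 2 were more positive and 4 more negative: ELL3 (1.05) and SPIB (0.81) on one side, CXCR4 (-1.19), CD38 (-1.15) and MSH6 (-0.88) among the other.

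Between PP and non-PP members, the comparison the dissection was made for, calls depended on the settings, among them pairing by pig. In the main fit, without pairing, no gene of 8745 (0%) passed in edgeR, while 622 had an unadjusted edgeR p under 0.05. None passed in DESeq2. Also without pairing, edgeR called 2 higher and 1 lower with only PP and non-PP libraries, and 10 and 5 without a filter on low counts. Both groups come from the same 2 pigs, and with pig as a block 7 genes were higher and 5 lower, or 6 and 4 with only these 4 libraries. Without pairing and without the library labelled whole ileum pig 1 the counts were 2 and 1. The higher included FABP5, CST3, NUPR1 and JCHAIN, which the rule limits, and the lower GNLY, GZMB, FABP6 and both GZMA identifiers. NUPR1 and the GZMA identifier ENSSSCG00000016903 did not pass with only these 4 libraries, and the block over 6 includes the library labelled whole ileum pig 1. The non-PP sums held 41184 and 92999 UMIs, against 6015557 and 6753255 in PP. The median of all genes was 0.35, and moved with the scaling, to 0.071 with upper quartile scaling and 0.13 without scaling. In DESeq2, another test and over 14174 genes, it was -0.31, and in edgeR without a filter on low counts it was 1.09. Small fold changes here therefore have no fixed direction. None of 25 germinal centre genes passed (median 0.11, or 0.078 with the 2 genes at 0 in one group set to their bound). BCL6, at 97.4 and 84.5 CPM in PP and 121 and 86.0 in non-PP, overlapped (0.12 ± 0.41, SE, edgeR adjusted p = 0.946), and its sign turned with upper quartile scaling. CD86, at 129 and 127 CPM in PP, was at 194 and 204 in non-PP without passing (-0.43 ± 0.27, SE, edgeR adjusted p = 0.728). BIRC5 (-0.20) and STMN1 (0.21, with its sign turned by upper quartile scaling and without scaling) did not pass either.

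JCHAIN, the joining chain of secreted antibodies, stood at 316 and 275 CPM in PP and 72.8 and 75.3 in non-PP, levels that the rule limits and that are given as a description only. Of the genes the rule did not use, FABP5 (4.21), TOMM20 (1.37), MRPL20 (1.46), MGST1 (1.18), SNRPE (0.72) and NPM1 (0.63) were among those of lowest adjusted p on the higher side without pairing. So were SDF2L1, RNF14 and LAMP1, which had no UMI in non-PP members. On the lower side GNLY stood at 73.1 and 109 CPM in PP and 316 and 581 in non-PP (-2.17 ± 0.49, SE, edgeR adjusted p = 0.695). With pig as a block it passed at -2.18 (edgeR adjusted p = 8.9e-12, and 6.77e-08 with only these 4 libraries), and over all settings its adjusted p ran from 3.49e-13 to 0.862. Also among those of lowest adjusted p on the lower side without pairing were GZMB (-1.74), FOS (-0.85), BCS1L (-2.04), ABTB1 (-1.68), FAM98C (-2.12), KDM5A (-1.21) and METTL14 (-1.45). The GZMA identifier ENSSSCG00000016902 (-2.32) was named there too. GNLY and GZMB are cytotoxic lymphocyte genes. T cell markers summed higher in non-PP than in PP members, as given above, but GZMB is itself in that list. Of 15 T cell markers tested, 7 had a fold change above 0 in PP over non-PP, and none passed without pairing. The summed S phase level was 10223 ± 668 CPM in PP and 9706 ± 781 in non-PP (SD, n = 2 each, exact permutation p = 0.667), and the G2/M sum 10409 ± 12.03 and 11432 ± 2101 (SD, n = 2 each, exact permutation p = 1). Without pig 1 both differences changed sign, the S phase one to -507 and the G2/M one to 471 CPM.

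The PP minus non-PP difference itself differed between cycling and non-cycling B cells for 6 genes of 9302 (0.0645%), with only 10 and 28 non-cycling cells in non-PP. GNLY (1.37 ± 0.26), CCL5 (1.68 ± 0.27), GZMB (1.70 ± 0.27) and 1 of 2 GZMA identifiers (1.75 ± 0.32) were less negative in cycling cells, where CCL5 had a log2 fold change of -0.73 against -2.13 in non-cycling cells (neither passed on its own), and the other two genes had no gene symbol. Without pig 2 the count was 81, without the library labelled whole ileum pig 1 it was 5, and with CD3D, CD3G and CD2 also required at 0, or in DESeq2, it was 0. Between PP and whole ileum, 2 of 8745 genes (0.0229%) passed, both complement genes of macrophages. C1QA stood at 19.6 and 32.7 CPM in PP and 4.59 and 2.99 in whole ileum (2.90 ± 0.37, SE, edgeR adjusted p = 0.0133). C1QB had 13.96 and 29.6 CPM against 3.18 and 3.13 (2.82 ± 0.41, SE, edgeR adjusted p = 0.0339). With PP and whole ileum libraries alone no gene passed. With pig as a block 11 were higher and 16 lower in the fit of all ileal libraries, and 2 higher and 0 lower with only PP and whole ileum libraries. Both blocks place the library labelled whole ileum pig 1 with pig 1. Leaving out pig 1 gave 29 higher and 20 lower, leaving out pig 2 gave 25 and 25, and leaving out the library labelled whole ileum pig 1 gave 4 and 3.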

How the data were processed

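Cells from 2 pigs were profiled by droplet-based single-cell RNA-seq in 4 tissues, 1 library each. The authors deposited UMI counts per gene and barcode; the submitters' processing notes name Cell Ranger 4.0.6. The 4 runs of each library were summed. Barcodes with 1250 UMIs, 550 genes and at most 12.5% of UMIs from 13 mitochondrial genes were kept. Whole libraries, all barcodes included, held 21134542 to 40111934 UMIs, and kept barcodes a median of 2578 to 3584 UMIs per library. Of 25880 genes, 17733 had symbols in the files, 969 took one from the gene name table, 19 from the study's own gene table, and 7159 had none. Immunoglobulin constant genes are not named in the matrices and were not analysed here. Doublets were scored with scrublet (scanpy 1.11.5, expected rate 0.07, threshold 0.25).

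Counts were summed per class and library, which gave 41184 to 7028123 UMIs for cycling B cells, and tested with edgeR 4.0.16 (quasi-likelihood, R 4.3.3, TMM scaling, filterByExpr, Benjamini-Hochberg adjustment at 0.05). The PP and non-PP fit held the 6 ileal libraries and the blood fit all 8. DESeq2 1.42.0 was an alternative. The scripts were tested on simulated data. Log2 ratios used a pseudocount of 5 CPM, and floors 3 counts. Each group held 2 libraries, labelled as 2 animals, which the Y-linked transcripts in the library labelled whole ileum pig 1 do not match. The p-values rest on the spread of 2 libraries a group, and intervals cover counting error only.

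Same-numbered libraries were labelled as the same pig. Their deviations from group means correlated at 0.29 for PP and PBMC, 0.11 for PP and non-PP and -0.14 for PP and whole ileum. Pig was therefore also used as a block. The library labelled whole ileum pig 1 did not match its animal.

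The members and gene lists were chosen with earlier results of these data known. Genes were named as the most abundant genes of each list and those called, up to 5 per list and comparison, the 10 of lowest adjusted p in each direction between PP and non-PP, the 15 of highest and 15 of lowest mean ratio at 50 CPM or more, and BCL6, CD86, BIRC5 and STMN1. Some genes that this rule names are not reported here. Others were chosen after their values were seen. The comparisons with PBMC and with whole ileum, their alternatives, and the limit of 5 CD79B UMIs were added after seeing the data. Alternatives covered the member rule, scaling, filter, test, libraries and block.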

Additional observations from a re-analysis of the deposited data

Results flagged for a closer look

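Several results were marked because an effect of tissue differed between cycling and non-cycling B cells in a test of the difference itself. The PP minus PBMC difference was more positive in cycling than in non-cycling B cells for 139 genes and more negative for 267 (edgeR adjusted p under 0.05). The PP minus non-PP difference was less positive in cycling cells for 2 genes without a symbol, ENSSSCG00000039111 (-3.55, from log2 fold changes of 2.75 in cycling and 6.56 in non-cycling cells fitted apart) and ENSSSCG00000036224 (-1.16, from 0.89 and 2.28). It was less negative in cycling cells for the cytotoxic lymphocyte genes GNLY (1.37), CCL5 (1.68), GZMB (1.70) and GZMA, identifier ENSSSCG00000016902 (1.75). These 6 rest on 21 cycling and 38 non-cycling B cells of non-PP tissue, and none of the 6 passed with CD3D, CD3G and CD2 also at 0 or in DESeq2.

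Signals also lay outside the comparisons. Y-linked transcripts stood at 207 CPM in the library labelled whole ileum pig 1, an animal labelled female whose other libraries held at most 0.224. In non-PP pig 1, 1 cycling B cell held Y-linked UMIs. Their source was not tested.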

How the results depend on the processing

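Of 162 recomputed summary values, 104 stayed within 1.5 times the reported count or 1 SD of the reported value, 54 moved further and 4 changed sign. For genes named between PP and PBMC, 1633 values kept sign and call, 128 lost the call and 7 changed sign. Between PP and non-PP, where no named gene had passed, 326 kept sign and call, 25 gained a call and 9 changed sign. Between 303 and 578 of the 578 higher calls and 368 and 665 of the 667 lower calls in PP over PBMC were shared with an alternative. The causes were not tested. Where leaving out a pig left 1 library a group, that library was assumed to vary like the other groups.

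Without any gene called between PP and non-PP, the higher count became 2 without the JCHAIN limit, 3 at 5 or more CD79B UMIs, 10 without a count filter, 2 with PP and non-PP libraries only and 2 without the library labelled whole ileum pig 1. The lower count became 1, 5, 1 and 1 under the last 4 of these. Leaving out a pig gave 0 to 1 in each direction. With pig as a block they were 7 and 5, and with the block and only PP and non-PP libraries 6 and 4.

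Between PP and PBMC, 882 genes were higher without library scaling, 352 to 453 on leaving out a pig, and 938 higher and 979 lower with the block and only these 4 libraries. The lower count was 418 to 483 on leaving out a pig. With the block in all 8 libraries the counts were 604 and 676, and DESeq2 gave 453 and 824. Without library scaling 63.2% of calls were on the higher side, against 46.4%. Between PP and whole ileum the 2 higher calls became 5 with further T cell genes at 0, 0 at 5 or more CD79B UMIs, 1 in DESeq2, 31 without a count filter, 0 with these libraries only, 4 without the library labelled whole ileum pig 1, 25 to 29 on leaving out a pig and 11 with the block, and stayed at 2 with the block and only these libraries. The lower count of 0 became 16, 3, 20 to 25 and 16 without a filter, without that library, without a pig and with the block, and stayed at 0 with the block and only these libraries.

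The 6 genes whose PP minus non-PP difference depended on cycling became 1 without scored doublets, 12 at 2 or more TOP2A and PCLAF UMIs, 69 without the JCHAIN limit, 0 with further T cell genes at 0, 3 at 5 or more CD79B UMIs, 0 in DESeq2, 9 without a filter, 9 with upper quartile scaling, 16 without scaling and 6 to 81 on leaving out a pig. For PP minus PBMC the 406 became 636 without the JCHAIN limit, 239 at 5 or more CD79B UMIs, 270 in DESeq2 and 90 to 163 on leaving out a pig.

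The PP minus non-PP share of kept cells, 12.5 points, was 8.45 at 2 or more TOP2A and PCLAF UMIs, 9.86 with further T cell genes at 0, 3.99 after thinning and 8.38 at 5 or more CD79B UMIs. The share of CD79B cells, -3.02 points, turned to 3.15 and, without the JCHAIN limit, 0.0262, and was -8.22 with further T cell genes at 0 and -6.75 after thinning. On leaving out a pig the S phase sum went from -507 to 1541 CPM and the G2/M sum from -2518 to 471 CPM. The median of the resting list was -2.88 with a pseudocount of 1 CPM, against -1.90 over 6 libraries.

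Single genes also changed sign. Between PP and non-PP these were GZMA (-2.59 to 0.56 on leaving out a pig), FOS (1.16 at 2 or more TOP2A and PCLAF UMIs), STMN1 (-0.11 with upper quartile scaling, -0.030 without scaling) and BCL6 (-0.12 at 5 or more CD79B UMIs, -0.039 in DESeq2, -0.16 with upper quartile scaling, -0.10 without scaling, -0.061 to 0.18 on leaving out a pig). Between PP and PBMC they were STMN1 (0.12 without the JCHAIN limit, 0.16 without scaling, 0.059 without a filter, -0.077 to 0.046 on leaving out a pig, 0.16 with whole ileum pig 2 in place of PP pig 2), KLRK1 (-4.36 to 0.54 on leaving out a pig) and MZB1 (-0.90 without the JCHAIN limit).

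Depth limits the non-PP results, with 6 and 15 cycling B cells, and single-UMI genes in blood, with 73 and 55.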
